A study of Mus musculus with 19 samples.

Results

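The barrier lipid synthesis genes of the epidermis were followed across the tongue epithelia of transgenic mice. They are 9 genes taken from a list of names (Elovl4, Cyp4f39, Cers3, Pnpla1, Abca12, Alox12b, Aloxe3, Sdr9c7 and Acer1). The list was chosen with earlier results of these data known, so shares of all genes stand beside its counts for scale only. All 9 were found among the 24689 gene symbols of the deposited expression table, and all 9 passed the filter on low values.

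Messenger RNA of whole tongue epithelium, selected by its poly(A) tail, was sequenced from 19 mice, 15 days after the treatment that induces the transgenes. The induced cells are basal cells, where Krt14 is active, and their progeny, while the RNA came from the whole epithelium. The tetON transgenes needed doxycycline, given in the food, and the Cre recombinase needed tamoxifen, given into the tongue. Mice were 8 to 16 weeks old and, by the methods of the study, also carried a tetON_H2B-GFP reporter. Between 8269674 and 11007304 reads per mouse stood behind the values, which are in TPM (transcripts per 1000000 transcripts), a unit corrected for gene length. Which length was used is not stated, and it weighs heavily. In N mouse 1, 2824 recovered reads of Abca12 gave 9.32 TPM and 3317 of Alox12b gave 148 TPM. Levels of different genes may therefore not be on 1 scale of transcript number, and the tests compare the same gene between mice. The 5 E mice were Krt14-CreERT/LSL-rtTA/tetON_E6-E7 and expressed the E6 and E7 oncogenes of a human papillomavirus. The 3 Y mice were Krt14-CreERT/LSL-rtTA/tetON_YAP1S127A and expressed a YAP1 protein that stays active, and the 6 EY mice carried both effector transgenes with the same Krt14-CreERT and LSL-rtTA. Of the 5 N mice, the controls, N mice 1 to 3 were Krt14-CreERT/LSL-rtTA, N mouse 4 had LSL-rtTA but lacked Cre, and N mouse 5 had Krt14-CreERT with both tetON_E6-E7 and tetON_YAP1S127A but lacked rtTA.

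The surface of a keratinizing epithelium is sealed by lipids that its upper cells make as they die. Very long fatty acids are lengthened, given a hydroxyl group at their far end, joined to a sphingoid base to form a ceramide, and esterified with linoleic acid, after which lipoxygenases and a dehydrogenase oxidize the linoleate and the product is bound to the protein envelope of the cell. Inherited loss of most of these enzymes causes ichthyosis, a failure of the skin barrier, and the epithelium of the mouse tongue also keratinizes at its surface.

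The tissue label was checked against keratins. The most abundant gene of the 6 suprabasal oral markers was Krt13, with 46629 to 88787 TPM in N mice, and that of the 6 basal markers was Krt14, with 4659 to 8724 TPM. Markers of stratified epithelium were thus abundant in every group, while late markers of keratinization ran in N epithelium from 3158 to 8136 TPM of Lor and 444 to 1200.3 TPM of Krt10 down to 11.1 to 29.1 TPM of Flg and 6.30 to 12.6 TPM of Krt1. No pair of mice had identical values.

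Genes were compared with limma on log2(TPM + 0.1) in a single model of all 4 groups, over the 22745 genes that reached 0.1 TPM in 3 mice or more. A gene was called changed when its p, adjusted over all these genes by the Benjamini-Hochberg method, was below 0.01 and its log2 fold change was above 1 in either direction. EY, Y and E were each compared with the same N mice, so these comparisons share their controls and their values are given side by side only. Across all genes, 4157 were called in EY against N, 1042 in Y against N and 274 in E against N. The median gene was itself 0.33 higher on the log2 scale in EY than in N, and this median was 0.01 after median-of-ratios scaling of the mice. Of the called genes, 68.8% were higher in EY on the deposited scale and 43.9% after that scaling. In Y against N these shares were 75.8% and 57.2%. Changes of the members in EY against N are therefore also given after that scaling, relative to the shift of the median, and those of other genes where a call differed.

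Epithelium with both transgenes held less RNA of most barrier lipid genes than N epithelium. In EY against N, 6 of the 9 members fell and 0 rose, where 5.71% of all genes tested were called lower. Acer1, Sdr9c7, Aloxe3, Pnpla1, Elovl4 and Alox12b were the 6 members that fell, and for each of these 6 the highest EY mouse lay below the lowest N mouse, as it did for 6.49% of all genes tested. The median log2 fold change of the 9 members was -1.24, against 0.33 for all genes. Fewer cells of a type and less RNA per cell cannot be told apart in RNA from whole epithelium.

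The members summed to 421, 478, 520.4, 465 and 461 TPM in N mice 1 to 5. They summed to 419, 561, 632, 427 and 551 TPM in E mice 1 to 5. In Y mice 1 to 3 the sum was 485, 251 and 361 TPM. In EY mice it ran from 168 to 290.4 TPM, with a median of 200.7 TPM. Every EY sum was thus below every N and E sum, while Y mouse 2 fell within the EY range. Alox12b, Elovl4 and Aloxe3, which fell in EY, weigh most in the sum, with N means of 137, 109 and 83.9 TPM. Cers3, Cyp4f39 and Abca12, which were not called, weigh little, with 18.4, 17.3 and 12.8 TPM. So do Acer1 and Pnpla1, which fell, with 24.2 and 10.5 TPM.

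**Figure D1:**
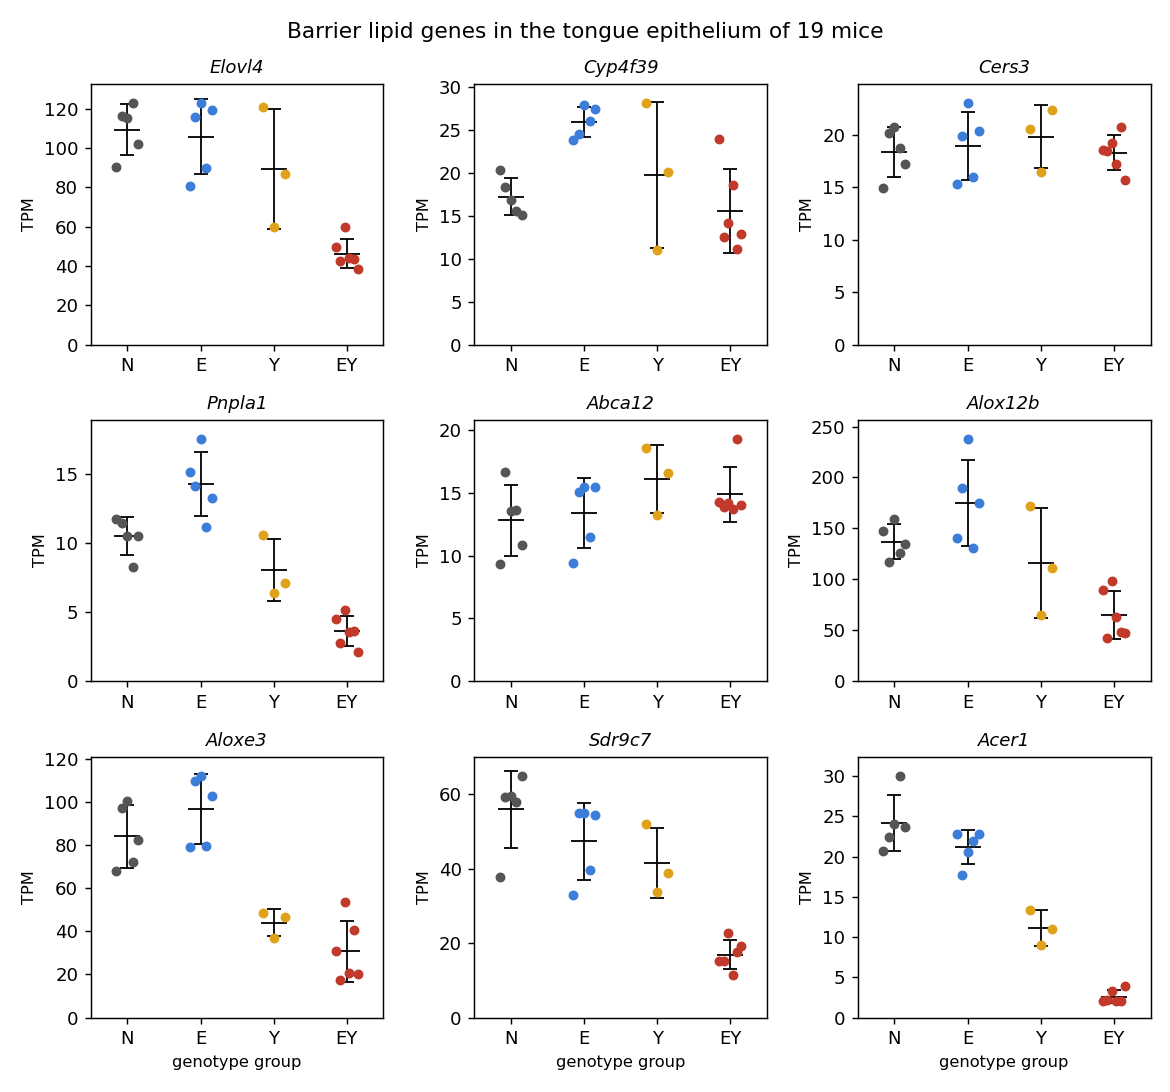
TPM of each of the 9 barrier lipid genes by group (N, E, Y and EY), on a linear axis from 0, with a point for each mouse and bars for the mean ± SD. For Acer1 the 6 EY mice lie between 2.02 and 3.97 TPM and the 5 N mice between 20.8 and 30.0 TPM, while for Cers3, whose fold change in EY turns negative after median-of-ratios scaling, the mice of both groups overlap.

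Elovl4 is the elongase that lengthens fatty acids to the very long chains of barrier ceramides. Its level in N mice 1 to 5 was 90.3, 116, 115, 123 and 102 TPM. In E mice 1 to 5 it was 80.6, 116, 123, 90.0 and 119 TPM. In Y mice 1 to 3 it was 121, 60.0 and 86.9 TPM. N and E epithelium overlapped, and Y mouse 1 was within the N range while Y mice 2 and 3 were below it. EY mice had 38.4 to 59.6 TPM with a median of 44.0 TPM, all below every mouse of the other groups. Against N, Elovl4 fell by 1.24 on the log2 scale in EY mice (SE 0.164, limma adjusted p = 9.13e-06), to 42.4% of the N mean.

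Cyp4f39 is the cytochrome P450 that hydroxylates the far end of these fatty acids. N mice 1 to 5 had 20.4, 18.3, 16.9, 15.6 and 15.1 TPM of it. E mice 1 to 5 had 23.9, 24.5, 28.0, 26.1 and 27.5 TPM, each above every N mouse. Y mice 1 to 3 had 28.2, 11.1 and 20.1 TPM, a wider spread than in N or E mice. EY mice had 11.2 to 24.0 TPM with a median of 13.6 TPM, and 4 of 6 were below every N mouse and 1 above. The log2 fold change was -0.19 in EY against N (SE 0.209, limma adjusted p = 0.502), and in E against N it was 0.59 (SE 0.218, limma adjusted p = 0.178), so neither was called. After median-of-ratios scaling the value in EY against N was -0.57 (adjusted p = 0.0385), still under the fold limit.

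Cers3 is the ceramide synthase that joins the very long fatty acids to the sphingoid base. It had 14.9, 20.1, 20.8, 18.8 and 17.2 TPM in N mice 1 to 5. It had 15.3, 19.9, 23.0, 15.98 and 20.4 TPM in E mice 1 to 5 and 20.6, 16.5 and 22.4 TPM in Y mice 1 to 3. All 4 groups overlapped, and the 6 EY mice, with 15.7 to 20.7 TPM and a median of 18.5 TPM, lay within the N range. In EY against N its log2 fold change was 0.00 (SE 0.121, limma adjusted p = 0.997), with a 95% interval from -0.25 to 0.26. Since the median gene was 0.33 higher, the sign depends on the scale: the value was -0.37 after median-of-ratios scaling (adjusted p = 0.0211) and -0.41 after quantile normalization (adjusted p = 0.00960), both under the fold limit.

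Abca12 is the transporter that loads barrier lipids into lamellar granules. It had 9.32, 16.6, 13.6, 13.7 and 10.9 TPM in N mice 1 to 5 and 9.43, 15.1, 15.5, 11.5 and 15.5 TPM in E mice 1 to 5. Y mice 1 to 3 had 18.6, 13.2 and 16.6 TPM. EY mice had 13.7 to 19.3 TPM with a median of 14.1 TPM, and only EY mouse 5 was above every N mouse. The log2 fold change in EY against N was 0.23 (SE 0.163, limma adjusted p = 0.278), and it turned to -0.14 after median-of-ratios scaling and to -0.18 after quantile normalization.

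Pnpla1 is the acyltransferase that puts linoleic acid onto the hydroxylated ceramide. N mice 1 to 5 had 11.7, 11.5, 10.5, 8.28 and 10.6 TPM. E mice 1 to 5 had 15.2, 14.2, 17.5, 11.2 and 13.3 TPM, 4 of them above every N mouse. Y mice 1 to 3 had 10.6, 6.37 and 7.12 TPM, 2 of them below every N mouse. EY mice had 2.12 to 5.17 TPM with a median of 3.61 TPM, below every mouse of the other groups. Against N, Pnpla1 fell by 1.56 on the log2 scale in EY mice (SE 0.1997, limma adjusted p = 6.56e-06), to 34.5% of the N mean.

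Alox12b is the lipoxygenase that first oxidizes the linoleate of the ceramide. N mice 1 to 5 had 148, 117, 159.6, 126 and 134 TPM of Alox12b. E mice 1 to 5 had 141, 189, 237, 131 and 175 TPM, 3 of them above every N mouse. Y mice 1 to 3 had 172, 64.6 and 111 TPM, on either side of the N range. EY mice had 42.7 to 98.4 TPM with a median of 55.6 TPM, below every N and E mouse but overlapping Y. Against N, Alox12b fell by 1.14 on the log2 scale in EY mice (SE 0.253, limma adjusted p = 0.00133), to 47.3% of the N mean.

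Aloxe3 is the lipoxygenase that acts next and turns the hydroperoxide into an epoxide. Its level was 67.8, 96.9, 100.5, 72.0 and 82.5 TPM in N mice 1 to 5. It was 78.9, 109.7, 112, 79.4 and 103 TPM in E mice 1 to 5, which overlapped N. In Y mice 1 to 3 it was 48.3, 36.8 and 46.6 TPM, below every N mouse. EY mice had 17.5 to 53.6 TPM with a median of 25.7 TPM, and overlapped Y. Against N, Aloxe3 fell by 1.56 on the log2 scale in EY mice (SE 0.242, limma adjusted p = 5.05e-05), to 36.5% of the N mean.

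Sdr9c7 is the dehydrogenase that follows Aloxe3. N mice 1 to 5 had 37.9, 59.3, 59.5, 57.9 and 64.9 TPM, and N mouse 1 stood apart below the others. E mice 1 to 5 had 32.8, 55.0, 54.8, 39.6 and 54.4 TPM. Y mice 1 to 3 had 51.9, 33.6 and 38.8 TPM, and both E and Y overlapped N. EY mice had 11.3 to 22.8 TPM with a median of 16.5 TPM, below every mouse of the other groups. Against N, Sdr9c7 fell by 1.73 on the log2 scale in EY mice (SE 0.193, limma adjusted p = 1.37e-06), to 30.2% of the N mean.

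Acer1 is an alkaline ceramidase of the upper epidermis, which splits ceramides into a sphingoid base and a fatty acid. N mice 1 to 5 had 20.8, 22.4, 24.0, 30.0 and 23.7 TPM. E mice 1 to 5 had 22.8, 17.7, 20.6, 21.97 and 22.7 TPM, which overlapped N. Y mice 1 to 3 had 13.4, 9.01 and 10.9 TPM, below every N and E mouse. EY mice had 2.02 to 3.97 TPM with a median of 2.15 TPM, below every Y mouse in turn. Against N, Acer1 fell by 3.20 on the log2 scale in EY mice (SE 0.170, limma adjusted p = 3.91e-10), to 10.8% of the N mean. Its fewest recovered reads, 88 in an EY mouse, were also the fewest of any member in any mouse.

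After median-of-ratios scaling the 6 members that fell in EY against N lay further below 0 on the log2 scale, at -3.57 for Acer1, -2.10 for Sdr9c7, -1.93 for Aloxe3, -1.92 for Pnpla1, -1.62 for Elovl4 and -1.52 for Alox12b. All 6 were called under every alternative run, with any 1 mouse left out as well.

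**Figure D2:**
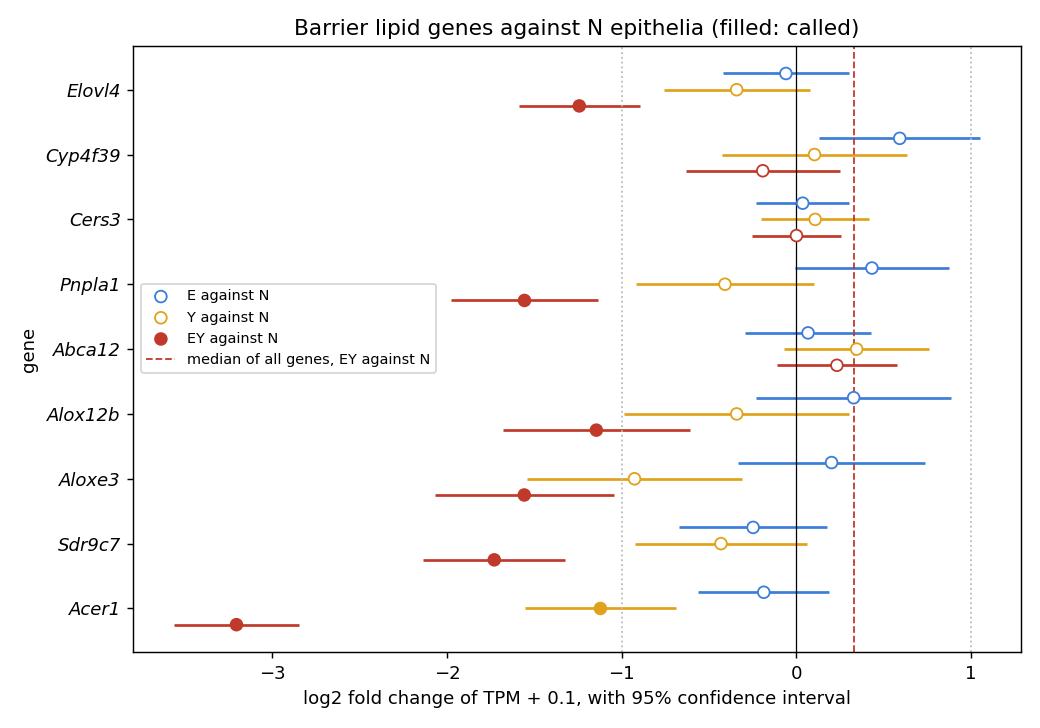
Log2 fold change of the 9 barrier lipid genes in EY, Y and E against the same N mice, with 95% intervals from limma; filled points are called, the dotted lines are the fold limit, and the dashed line is the median of all genes in EY against N, at 0.33. In EY 6 genes lie left of 0 with filled points, from -3.20 for Acer1 to -1.14 for Alox12b, while Cers3 at 0.00 and Abca12 at 0.23 turn negative after median-of-ratios scaling.

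YAP1S127A alone gave fewer calls. In Y against N, 1 of the 9 members was called lower, where 1.11% of all genes tested were, and the median log2 fold change was -0.34 for the members and 0.13 for all genes. Acer1 was that member and fell by 1.12 on the log2 scale (SE 0.205, limma adjusted p = 0.00120), to 46.0% of the N mean and below every N mouse in 3 of 3 Y mice. This call rests on Y mouse 2 and on the choice of N mice: without Y mouse 2 the log2 fold change was -0.98 (adjusted p = 0.0110), and with only N mice 1 to 3 it was -1.02 (adjusted p = 0.0115). Aloxe3 had a log2 fold change of -0.93 (SE 0.292, limma adjusted p = 0.0386) with 3 of 3 Y mice below every N mouse, which was not called, but it was called at -1.03 (adjusted p = 0.00709) by limma voom on the recovered reads. The log2 fold changes of the others in Y against N ran from -0.43 for Sdr9c7 to 0.35 for Abca12, and those of Cers3, 0.11, and Cyp4f39, 0.10, turned to -0.09 for each after median-of-ratios scaling.

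E6 and E7 alone gave no call among the members. In E against N, 0 of the 9 members were called by limma or by limma voom, and 1 had an unadjusted p below 0.05, where 1.20% of all genes tested were called in either direction and 3358 of 22745 had such a p. The median log2 fold change was 0.07 for the members and 0.07 for all genes. The gene with the unadjusted p was Cyp4f39, described above. The others ran from -0.25 for Sdr9c7 to 0.43 for Pnpla1 on the log2 scale, and Cers3, at 0.04, and Abca12, at 0.07, turned to -0.08 and -0.05 after median-of-ratios scaling. E mice 1 and 4 were the lowest E mice for Elovl4, Cers3, Abca12, Alox12b, Aloxe3 and Sdr9c7, but neither was the lowest for Acer1.

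The difference between both transgenes and 1 transgene was tested directly. In EY against Y, 3 of the 9 members were called lower, where 0.928% of all genes tested were, with a median log2 fold change of -0.80 for the members and 0.18 for all genes. Acer1 fell by 2.08 on the log2 scale (SE 0.199, limma adjusted p = 8.68e-06), Sdr9c7 fell by 1.30 (SE 0.225, limma adjusted p = 0.00193) and Pnpla1 fell by 1.15 (SE 0.233, limma adjusted p = 0.00560). Each was lower in 6 of 6 EY mice than in every Y mouse. Elovl4 had an adjusted p of 0.00743 in limma but a log2 fold change of -0.90, under the limit, and was called at -1.08 after median-of-ratios scaling. In a fit of only the EY and Y mice, Sdr9c7 (adjusted p = 0.0137) and Pnpla1 (adjusted p = 0.0510) were no longer called, which left 1 member. Without Y mouse 1, Sdr9c7 was at -1.12 (adjusted p = 0.0209) and Pnpla1 at -0.93 (adjusted p = 0.0516). The call of Pnpla1 was also lost without Y mouse 2 (adjusted p = 0.0110), Y mouse 3 (0.0177), EY mouse 2 (0.0132) or EY mouse 4 (0.0109), and with a pseudocount of 1 TPM, at -0.97. With the mouse number as a block Pnpla1 was at -0.91 (limma adjusted p = 0.0103) and not called. Without Y mouse 2, Elovl4 was called, at -1.16 (limma adjusted p = 0.00303).

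In EY against E, 6 of the 9 members were called lower, where 4.99% of all genes tested were, with a median log2 fold change of -1.47 for the members and 0.26 for all genes. They were the genes that also fell in EY against N, and their log2 fold changes ran from -3.02 for Acer1 to -1.18 for Elovl4. Pnpla1 fell by 1.99 on the log2 scale (SE 0.1997, limma adjusted p = 8.39e-07), and the highest EY mouse lay below the lowest E mouse. Cyp4f39 had a log2 fold change of -0.78 (SE 0.209, limma adjusted p = 0.00678), under the limit, and was called at -1.05 after median-of-ratios scaling and after quantile normalization. Abca12 was at 0.17 and turned to -0.10 after that scaling.

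In Y against E, 0 of the 9 members were called, where 2.48% of all genes tested were called in either direction, and 4 members and 5293 of 22745 genes had an unadjusted p below 0.05. Acer1 was under the fold limit, with a log2 fold change of -0.94 (SE 0.205, limma adjusted p = 0.00757) and every Y mouse below every E mouse. It was called at -1.02 after median-of-ratios scaling, and limma voom called 2 members, Acer1 at -1.02 and Aloxe3 at -1.20. In limma Aloxe3 was past the fold limit, at -1.13 (SE 0.292, limma adjusted p = 0.0203), also with every Y mouse below every E mouse. Without EY mouse 3 it was called (limma adjusted p = 0.0063).

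The departure from the sum of both effects (EY - E - Y + N) asks whether EY lies below what E and Y would add up to on the log2 scale. It was called lower for 1 of the 9 members, Acer1, where 0.167% of all genes tested were called lower, and its median was -0.89 for the members and 0.08 for all genes. Acer1 departed by -1.90 (SE 0.266, limma adjusted p = 0.00167). Without Y mouse 1 it was -1.75 (adjusted p = 0.0104) and no longer called. Pnpla1 departed by -1.58 (SE 0.313, limma adjusted p = 0.0247), which was not called, but was at -1.66 (adjusted p = 0.00184) by limma voom and at -1.69 (adjusted p = 0.00827) without EY mouse 3. The departures of Alox12b, at -1.13, and Sdr9c7, at -1.05, had adjusted p values of 0.209 and 0.116.

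In order of group means, Acer1 ran N, E, Y, EY, with 24.2, 21.2, 11.1 and 2.60 TPM. N and E did not differ beyond their spread, Y lay below E without overlap but was not called, and EY was called below Y. Sdr9c7 had the same order, with 55.9, 47.3, 41.4 and 16.9 TPM, where N, E and Y overlapped and EY was called below Y. Elovl4 ran N, E, Y, EY too, with 109 TPM, 106 TPM, 89.3 TPM and 46.3 TPM, where N, E and Y overlapped and EY lay below Y without overlap. Pnpla1 ran E, N, Y, EY, with 14.3, 10.5, 8.03 and 3.63 TPM, and neighbours overlapped except that EY lay below Y. Alox12b ran E, N, Y, EY, with 175, 137, 116 and 64.8 TPM, and all neighbours overlapped. Aloxe3 ran E, N, Y, EY, with 96.5, 83.9, 43.9 and 30.6 TPM, and only N and Y did not overlap. For Cyp4f39 (E, Y, N, EY), Cers3 (Y, E, N, EY) and Abca12 (Y, EY, E, N) all neighbours in the order overlapped. All these orders are on the deposited scale, and some log2 fold changes turned after median-of-ratios scaling. Abca12 in EY was then at -0.14 against N and -0.10 against E. Cers3 in Y was at -0.090 against N and -0.014 against E, and Cyp4f39 in Y at -0.094 against N.

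Ratios of genes that act in neighbouring steps were compared within each mouse, since a ratio does not depend on the scaling of the mouse. A total of 18 differences were tested by two-sided exact permutation tests over mice with Benjamini-Hochberg adjustment, and those with an adjusted p below 0.05 were taken as changed. The smallest p that 6 against 5 mice can give is 0.00433, that of 5 against 5 is 0.00794 and that of 3 against 5 is 0.0357. The log2 ratio of Acer1 to Cers3 was -2.86 ± 0.51 (SD, n = 6) in EY and 0.40 ± 0.21 (n = 5) in N, a difference of -3.26 (exact permutation adjusted p = 0.0260), and 6 of 6 EY mice lay below the lowest N mouse. The log2 ratio of Pnpla1 to Cers3 was -2.39 ± 0.39 in EY and -0.80 ± 0.31 in N, a difference of -1.59 (exact permutation adjusted p = 0.0260), and again 6 of 6 EY mice lay below the lowest N mouse. The log2 ratio of Cyp4f39 to Elovl4 was higher in 6 of 6 EY mice than in every N mouse, by 1.05 on average (exact permutation adjusted p = 0.0260). Within each EY mouse these genes had therefore changed unequally, which does not show that any of them was unchanged. These 3 differences had an adjusted p of 0.0571 without any 1 of N mice 2 to 5, and of 0.143 with only N mice 1 to 3, where fewer mice allow no smaller p.

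In E mice the log2 ratio of Sdr9c7 to Aloxe3 was lower than in every N mouse in 5 of 5 mice, by -0.45 on average (exact permutation adjusted p = 0.0357). It did not pass without any 1 of N mice 2 to 5 or of the 5 E mice (highest adjusted p = 0.0714), and was -0.27 with only N mice 1 to 3 (adjusted p = 0.161). In E, Cyp4f39 to Elovl4 differed by 0.65 (exact permutation adjusted p = 0.0571, 4 of 5 mice above every N mouse) and Cers3 to Cyp4f39 by -0.56 (exact permutation adjusted p = 0.0804). In Y, Acer1 to Cers3 differed by -1.24 with 3 of 3 mice below every N mouse, and Sdr9c7 to Aloxe3 by 0.50 with 3 of 3 mice above. Both had the smallest p that 3 against 5 mice can give, with an exact permutation adjusted p of 0.0804, so the adjustment could not be passed at that p. The remaining ratios had adjusted p values from 0.111 to 1.00.

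**Figure D3:**
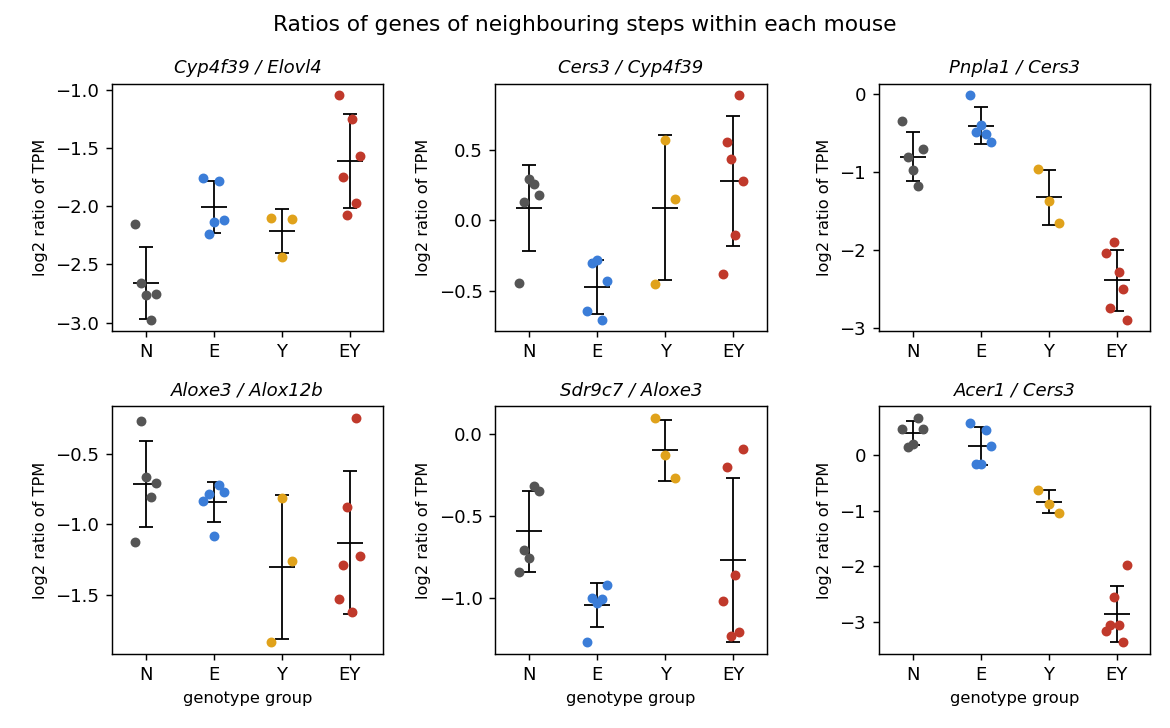
Log2 ratio of the TPM of 6 pairs of barrier lipid genes that act in neighbouring steps, within each mouse, by group (N, E, Y and EY), with a point for each mouse and bars for the mean ± SD. Acer1 to Cers3 lies between -3.36 and -1.98 in the EY mice and between 0.16 and 0.68 in the N mice, and Pnpla1 to Cers3 between -2.89 and -1.89 in EY and between -1.18 and -0.35 in N.

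The members varied together within groups to different degrees. After the mean of each group was taken off, Pearson's r over 19 mice ran from -0.20 for Pnpla1 with Acer1 to 0.86 for Cers3 with Abca12, with a median of 0.50 over the 36 pairs, of which 33 were above 0. Y mouse 2 was the lowest Y mouse for all 9 members. Among 15604 genes with a mean of at least 1 TPM, those whose log2 level was most like the mean of the standardized members over 19 mice included Gm12265 (r = 0.952), Ttpal (0.945), Lypd5 (0.940), Ablim1 (0.940), Lpin3 (0.933), Plekhg1 (0.931), Dnajb2 (0.930), Klk5 (0.924) and Pla2g4d (0.923). The least like were Phax (r = -0.892), Ctnnal1 (-0.889), Gpr161 (-0.884), Sco1 (-0.880) and Fam169a (-0.879). These correlations are over 19 mice that fall into 4 groups. With the group means taken off, r was 0.848 for Gm12265, 0.906 for Ablim1 and -0.641 for Phax.

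Taken singly, each member was most like other genes over the same 19 mice. Acer1 was most like Gm49887 (r = 0.992), Ank (0.984) and Gm11940 (0.980), Sdr9c7 like Teddm3 (0.964), Calm4 (0.955) and Plekhn1 (0.953), and Pnpla1 like Pla2g4d (0.976), Natd1 (0.970) and Tmprss13 (0.970). Alox12b was most like Lpin3 (0.957), Tmprss13 (0.949) and Pla2g4d (0.939), Aloxe3 like Esyt3 (0.965), Eps8l1 (0.964) and Myo6 (0.962), and Elovl4 like Dsg1b (0.961), Mocos (0.957) and Gjb6 (0.951). Cers3 was most like Abca12 (0.801), 4933416M07Rik (0.755) and Rab11fip1 (0.744), Abca12 like Gm48678 (0.812), Mpzl3 (0.807) and Zdhhc21 (0.801), and Cyp4f39 like Smarcal1 (0.868), 1810058N15Rik (0.867) and Lypd3 (0.862). With the group means taken off, r was 0.860 for Cers3 with Abca12 and 0.818 for Acer1 with Gm49887. It was 0.606 for Acer1 with Ank and 0.652 for Sdr9c7 with Plekhn1. Over the pairs named here it ran from 0.591 for Acer1 with Gm11940 to 0.909 for Aloxe3 with Eps8l1.

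The promoters of 8 of the 9 members were found in RefSeq for build GRCm38.p6, from 250 bases before to 50 bases after the gene's start, and Aloxe3 was not matched. The expression files were made on build GRCm39, so these coordinates are not those of the files. Printed here are the promoters of the 3 members called in EY against both N and Y, and that of Cers3, whose groups overlapped. They lie at chr17:56982077-56982376 on the minus strand (Acer1), chr10:127898285-127898584 on the plus strand (Sdr9c7), chr17:28858161-28858460 on the plus strand (Pnpla1) and chr7:66743254-66743553 on the plus strand (Cers3). Capitals mark CCACCC on either strand.
Acer1: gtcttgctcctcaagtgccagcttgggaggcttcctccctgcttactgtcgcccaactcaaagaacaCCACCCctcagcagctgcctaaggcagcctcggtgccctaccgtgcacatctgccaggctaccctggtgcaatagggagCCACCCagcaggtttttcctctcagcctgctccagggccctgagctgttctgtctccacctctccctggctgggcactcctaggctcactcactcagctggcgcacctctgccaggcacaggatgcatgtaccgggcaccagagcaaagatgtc
Sdr9c7: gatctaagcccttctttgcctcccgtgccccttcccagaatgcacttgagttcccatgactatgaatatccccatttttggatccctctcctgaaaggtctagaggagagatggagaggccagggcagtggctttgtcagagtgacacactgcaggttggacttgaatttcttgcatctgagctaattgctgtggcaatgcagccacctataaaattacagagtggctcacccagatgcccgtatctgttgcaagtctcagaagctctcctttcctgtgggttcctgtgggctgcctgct
Pnpla1: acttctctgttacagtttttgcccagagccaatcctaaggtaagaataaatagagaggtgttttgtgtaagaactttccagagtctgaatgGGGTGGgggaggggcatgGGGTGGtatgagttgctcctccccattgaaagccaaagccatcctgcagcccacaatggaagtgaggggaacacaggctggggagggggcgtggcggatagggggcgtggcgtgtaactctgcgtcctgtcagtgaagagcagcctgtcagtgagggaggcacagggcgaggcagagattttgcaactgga
Cers3: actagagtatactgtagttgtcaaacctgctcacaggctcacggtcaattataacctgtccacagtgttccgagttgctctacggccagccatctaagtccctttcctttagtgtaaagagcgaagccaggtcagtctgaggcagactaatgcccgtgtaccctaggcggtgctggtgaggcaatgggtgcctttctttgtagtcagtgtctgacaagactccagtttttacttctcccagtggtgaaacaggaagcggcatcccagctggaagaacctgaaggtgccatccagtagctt

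Core letters of 4 families of DNA-binding factors were searched on both strands: GGAATG for TEAD factors, TGANTCA for AP-1 factors, AACCGGTT for grainyhead-like (GRHL) factors and CCACCC for KLF factors. None of these motifs is part of another. The KLF letters stood in 2 of the 8 promoters, those of Pnpla1 and Acer1, each with 2 matches, where 31.5% of 32851 promoters of 300 bases hold it. The TEAD, AP-1 and GRHL letters stood in 0 of the 8, where 14.7%, 7.81% and 0.146% of all promoters hold them. A match is a run of letters only, and no match says only that the letters are absent from this window. Alox12b and Aloxe3 are neighbours on chromosome 11. On the other strand Pnpla1os overlaps Pnpla1 and an RNA gene without protein overlaps Acer1, and since the strand setting of the counting is not stated, reads of such pairs cannot be told apart.

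Lists of related genes, also chosen with earlier results known, were counted beside all 22745 genes tested. Of these, 12.6% were called higher and 5.71% lower in EY against N, 3.47% and 1.11% in Y against N, and 1.16% and 0.044% in E against N, and 11043, 6562 and 3358 genes had an unadjusted p below 0.05. After median-of-ratios scaling 6.77% were called higher and 8.67% lower in EY against N. Genes that make the ceramide backbone did not move in 1 direction. Of 13 tested, 3 fell and 4 rose in EY against N, with a median log2 fold change of 0.40, and 1 rose after median-of-ratios scaling. Sptssb, a small subunit of serine palmitoyltransferase, had 16.2, 19.9, 21.3, 26.3 and 22.7 TPM in N mice and 2.26 to 4.39 TPM in EY mice, and fell by 2.74 on the log2 scale (limma adjusted p = 5.97e-09). Sptlc3, a catalytic subunit of the same enzyme, fell by 1.27 (limma adjusted p = 0.00121), and Cers4, another ceramide synthase, fell by 1.01 (limma adjusted p = 1.98e-04). Cers2, the synthase of long acyl chains in many tissues, had 10.1 to 20.2 TPM in N and 34.6 to 68.2 TPM in EY mice, and rose by 1.705 (limma adjusted p = 2.32e-06), or 1.33 after median-of-ratios scaling. Degs2, Cers6 and Sptssa rose by 1.71, 1.15 and 1.11 on the deposited scale and were not called after that scaling, at 1.35 (adjusted p = 0.0243), 0.80 and 0.73. With only N mice 1 to 3, Sptlc3 (adjusted p = 0.0131), Cers4 (at -0.98) and Degs2 (adjusted p = 0.0378) were not called in EY. Cers4 was also under the fold limit without N mouse 2 (-0.93), N mouse 4 (-0.94) or EY mouse 5 (-0.96). The call of Degs2 was lost without N mouse 3 (adjusted p = 0.0168), N mouse 5 (0.0157), EY mouse 1 (0.0110) or EY mouse 4 (0.0126) and with the mouse number as a block (0.0102). After quantile normalization Degs2 (adjusted p = 0.0211), Cers6 (at 0.89) and Sptssa (at 0.70) were not called, nor was Sptssa by limma voom, at 0.94. With a pseudocount of 1 TPM, Sptlc3 was at -0.80, Cers4 at -0.87 and Cers6 at 0.71, all under the fold limit. In Y against N, 1 fell and 0 rose, namely Sptssb, which fell by 1.41 (limma adjusted p = 4.10e-04), and in E against N 0 were called by limma, with 3 at an unadjusted p below 0.05. Without N mouse 1 or Y mouse 1, 1 gene of ceramide synthesis was called higher in Y against N.

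Of 13 genes that convert or break down ceramides, 2 fell and 0 rose in EY against N, where 5.71% and 12.6% of all genes did, with a median of -0.23. After median-of-ratios scaling 4 fell, where 8.67% of all genes did. Smpd3, a neutral sphingomyelinase, had 8.59 to 12.3 TPM in N and 1.34 to 5.07 TPM in EY mice and fell by 2.16 on the log2 scale (limma adjusted p = 1.68e-05). Asah2, a neutral ceramidase, fell by 1.78 (limma adjusted p = 2.53e-06) and was the 1 gene called in Y against N, where it fell by 1.30 (limma adjusted p = 0.00197) but was not called without Y mouse 2 (adjusted p = 0.0163), with only N mice 1 to 3 (adjusted p = 0.0145), in a fit of only the Y and N mice (adjusted p = 0.0119) or with a pseudocount of 1 TPM, at -0.85. Of 14 genes of fatty acid synthesis and elongation, 0 were called in EY, Y or E against N by limma, with 7, 4 and 1 at an unadjusted p below 0.05, where 11043, 6562 and 3358 of 22745 genes had one, and a median of 0.16 in EY, and 2 fell in EY after median-of-ratios scaling, where 8.67% of all genes did.

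Of 13 other barrier lipid and lamellar body genes, 2 fell and 1 rose in EY against N, where 5.71% and 12.6% of all genes did, with a median of -0.11. Lipm, a lipase of keratinizing epidermis, had 41.4 to 78.0 TPM in N and 12.5 to 32.1 TPM in EY mice and fell by 1.56 on the log2 scale (limma adjusted p = 1.49e-05). Lipk, of the same family, fell by 2.23 (limma adjusted p = 9.29e-05), and Lipn, also of this family, had 0.146 to 0.234 TPM in N and 0.695 to 2.42 TPM in EY mice and rose by 2.33 (limma adjusted p = 7.12e-05), or 0.996 with a pseudocount of 1 TPM, where it was not called. In Y and E against N 0 were called, with 3 and 1 at an unadjusted p below 0.05.

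Among 6 other genes, 5 of them lipoxygenases and 1, Alox5ap, for a protein that activates a lipoxygenase, 2 rose and 0 fell in EY against N, where 12.6% and 5.71% of all genes did, with a median of 0.13. After median-of-ratios scaling 2 fell, where 8.67% of all genes did. Without N mouse 4 or EY mouse 6, 1 of them fell in EY. Alox12e, an epidermal lipoxygenase, had at most 0.417 TPM in N mice and was at 0 in 2 of them, with 14.8 to 50.9 TPM in EY mice. It rose by 6.73 on the log2 scale (limma adjusted p = 3.01e-07), and in Y against N by 5.93 (limma adjusted p = 9.02e-05), values that depend on the pseudocount. Alox15 had 0.521 to 3.04 TPM in N and 15.8 to 158 TPM in EY mice and rose by 4.59 (limma adjusted p = 4.29e-04). The lipoxygenases of the barrier and these 2 thus moved in opposite directions in EY mice. In E against N 0 were called by limma, with 2 at an unadjusted p below 0.05, but 1 was called higher without N mouse 2, E mouse 1 or E mouse 4. Without E mouse 4, 2 rather than 1 were called higher in Y against N.

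Messenger RNAs for proteins of late squamous differentiation were tested as well. Of 12 genes, 9 fell and 0 rose in EY against N, where 5.71% and 12.6% of all genes did, with a median of -2.97. After median-of-ratios scaling also 9 fell, where 8.67% of all genes did. Krt10, a keratin of cornifying cells, had 444 to 1200.3 TPM in N mice and 4.22 to 23.3 TPM in EY mice, with 462.1 to 829.7 TPM when E6 and E7 were expressed alone and 116 to 149 TPM with YAP1S127A alone, and fell by 5.73 on the log2 scale in EY (limma adjusted p = 3.12e-09). The log2 fold changes of Hrnr, Lor and Krt1 were -5.59, -3.71 and -3.61. In EY against Y 6 of the 12 fell and 0 rose, with a median of -1.50, where 0.928% of all genes fell. In EY against E 9 fell and 0 rose, with a median of -2.72, where 4.99% of all genes fell. In Y against N 4 fell, where 1.11% of all genes did. Their log2 fold changes were -2.36 for Krt10, -2.32 for Hrnr, -2.15 for Flg and -1.56 for Dsc1 (limma adjusted p from 0.00146 to 0.00749). In E against N 0 were called by limma, with 0 at an unadjusted p below 0.05. With only N mice 1 to 3, Hrnr (adjusted p = 0.0220), Krt10 (adjusted p = 0.0126) and Dsc1 (adjusted p = 0.0102) were not called in Y, nor was Flg in a fit of only the Y and N mice (adjusted p = 0.0155) or Hrnr with the mouse number as a block (adjusted p = 0.0123). Without Y mouse 2 the adjusted p in Y against N was 0.0313 for Hrnr, 0.0167 for Flg and 0.0139 for Dsc1, and without Y mouse 3 it was 0.0378 for Hrnr, 0.0388 for Flg and 0.0120 for Krt10. Hrnr also lost its call without Y mouse 1 (adjusted p = 0.0176), N mouse 2 (0.0165), N mouse 3 (0.0179), N mouse 4 (0.0133) or N mouse 5 (0.0125), and Flg without N mouse 2 (0.01002). Without E mouse 3, EY mouse 1, EY mouse 2 or EY mouse 6 Hrnr just missed the limit, with an adjusted p of at most 0.0105.

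Markers of epithelial layers were summed in each mouse. The 6 basal markers summed to 9237 to 14581 TPM in N mice, with a median of 9886, and to 8930 to 15436 TPM in E mice, with a median of 11827. Their sum was 17073 to 30971 TPM in Y mice, with a median of 19601, and 15981 to 32149 TPM in EY mice, with a median of 25053. In EY against N, Krt14 rose by 1.43 on the log2 scale (limma adjusted p = 4.02e-04) and Krt15 fell by 1.27 (limma adjusted p = 0.00281; 0.0175 with only N mice 1 to 3 and 0.0101 with the mouse number as a block), with 0 of the 6 called in Y and E. Krt14 in Y against N had a log2 fold change of 1.33 (limma adjusted p = 0.0108), and 1 basal marker was called higher without N mouse 1, EY mouse 1, EY mouse 3 or EY mouse 5. In EY against N the basal markers called higher, 1 with all mice, were 3 without N mouse 1, EY mouse 3 or EY mouse 5 and 2 without N mouse 2 or EY mouse 4. After median-of-ratios scaling 2 rather than 1 fell in EY. The 6 suprabasal markers summed to 77087 to 147320 TPM in N mice, with a median of 120550, and to 76367 to 132910 TPM in E mice, with a median of 115200. Their sum was 56596 to 116970 TPM in Y mice, with a median of 86998, and 45974 to 71660 TPM in EY mice, with a median of 55361. In EY against N, Krt13 fell by 1.75 (limma adjusted p = 6.15e-05), Krt4 fell by 1.61 (limma adjusted p = 1.70e-04) and Krt17 rose by 2.96 (limma adjusted p = 6.15e-09), and in Y against N Krt17 rose by 2.10 (limma adjusted p = 2.63e-05). Without N mouse 3, 2 suprabasal markers were called higher in EY. Both sums thus join genes that moved in opposite directions in EY, and neither is a measure of a layer alone. No gene of these lists was at 0 in every mouse. The part of these layers in the fall of the members was not tested.

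Markers of other cell types were summed in each mouse. The gene named as leading a list had the highest mean TPM over all mice but not always the highest in each mouse. That of skeletal muscle was Acta1. The 6 muscle markers summed to 11.3 to 233 TPM in N mice (median 48.9) and to 34.3 to 1264 TPM in EY mice (median 166), with the highest sum in EY mouse 3. The E mice had 11.4 to 128 TPM (median 30.7) and the Y mice 7.22 to 137 TPM (median 16.7), and 0 were called in EY, Y or E against N. In EY against Y 0 muscle markers were called, with a median log2 fold change of 2.77. Of the 6, 5 had an unadjusted p below 0.05, as did 5425 of 22745 genes. In EY against E 0 were called, with a median of 2.38. Again 5 had such a p, as did 9909 of 22745 genes. The 6 fibroblast markers, led by Dcn, summed to 61.5 to 293 TPM in N mice (median 86.3) and to 24.2 to 153 TPM in EY mice (median 72.7). The E mice had 57.2 to 104 TPM (median 82.5) and the Y mice 23.8 to 44.1 TPM (median 34.5), and Dcn fell by 2.36 on the log2 scale in EY against N (limma adjusted p = 2.49e-04). It was the only 1 of the 6 with an unadjusted p below 0.05, and their median log2 fold change was above 0, at 0.39. Without EY mouse 3, 1 fibroblast marker was called lower in Y against N. In EY against Y the fibroblast markers had a median of 2.00, with 3 at an unadjusted p below 0.05 and 0 called. Endothelial markers, led by Pecam1, summed to at most 3.24 TPM in any mouse, with 0 of 4 called. Sebaceous markers, led by Cidea, summed to at most 10.4 TPM, with 0 of 3 called. Of the adipocyte markers only Cidec was in the table, at 0 in every N and E mouse and at most 0.355 TPM, and was not called. Salivary markers summed to at most 6.50 TPM but for N mouse 2, with 43.99 TPM, and N mouse 3, with 77.7 TPM. Dcpp1 led both sums and was at 0 in every other mouse, and 0 of the 3 markers tested were called, but 1 was called lower in EY against N without N mouse 4, without N mouse 5 or after median-of-ratios scaling.

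Immune and pigment cell markers were treated alike. The 6 neutrophil markers, led in the mean of all mice by Retnlg, summed to 1.22 to 7.62 TPM in N mice (median 1.59) and to 1.85 to 126 TPM in EY mice (median 50.7). The E mice had 0.377 to 7.99 TPM (median 2.46) and the Y mice 2.48 to 25.2 TPM (median 15.9). Mmp8, Ly6g and Cd177 rose in EY by 3.58, 2.87 and 2.09 on the log2 scale (limma adjusted p from 3.13e-04 to 0.00628), values that depend on the pseudocount since Ly6g was at 0 in every mouse of the other groups, and with a pseudocount of 1 TPM Ly6g (0.87) and Cd177 (0.57) were under the fold limit. Retnlg, which was at 0 in EY mouse 6 and in N mice 2 and 5, was not called (limma adjusted p = 0.0143). Cd177 lost its call without any 1 of N mice 2 to 5 or of EY mice 1 to 4, with adjusted p values from 0.0129 to 0.0165, and also after quantile normalization (0.0152), in a fit of only the EY and N mice (0.0281) and with only N mice 1 to 3 (0.0361). Macrophage markers, led by Cd68, summed to 34.2 to 241 TPM in N mice (median 41.7) and to 97.4 to 154 TPM in EY mice (median 142). The E mice had 29.7 to 177 TPM (median 109.8) and the Y mice 40.2 to 69.6 TPM (median 52.1), and 0 of 6 were called with all mice, but in EY against N 2 were called higher without N mouse 1 and 1 without E mouse 4. T cell markers, led by Trac, summed to 0.566 to 3.78 TPM in N mice (median 3.40) and to 5.41 to 9.76 TPM in EY mice (median 7.88). The E mice had 0.244 to 6.53 TPM (median 4.62) and the Y mice 1.30 to 5.16 TPM (median 2.09), and Cd3d rose in EY by 2.75 (limma adjusted p = 0.00284), but was not called with a pseudocount of 1 TPM, at 0.94, with only N mice 1 to 3 (adjusted p = 0.0119), with the mouse number as a block (0.0109) or without N mouse 4 (0.0101). Langerhans cell markers, led by Cd74, summed to 46.6 to 207 TPM in N mice (median 83.5) and to 111 to 232 TPM in EY mice (median 140.5). The E mice had 88.9 to 169.8 TPM (median 129.6) and the Y mice 70.2 to 118 TPM (median 98.0), and in EY against N Epcam rose by 1.85 (limma adjusted p = 2.06e-05) and Cd207 fell by 1.86 (limma adjusted p = 0.00314), but was not called in a fit of only the EY and N mice (adjusted p = 0.0198) or without N mouse 1 (0.0111). Melanocyte markers, led by Pmel, summed to 4.20 to 9.78 TPM over all mice, and Dct, with at most 0.356 TPM, fell by 1.10 in EY against N (limma adjusted p = 0.00300) but was at -0.19 with a pseudocount of 1 TPM (adjusted p = 0.0115) and at -0.86 without N mouse 2, and was not called in a fit of only the EY and N mice (adjusted p = 0.0167). In Y and E against N 0 genes of these immune and pigment lists were called by limma with all mice. Epcam in E against N had a log2 fold change of 1.27 (limma adjusted p = 0.0134), and 1 Langerhans cell marker was called higher without N mouse 3 or E mouse 1. In EY against N the neutrophil markers called higher, 3 with all mice, were 5 without EY mouse 6, and the T cell markers, 1 with all mice, were 2 without N mouse 5. The part of these cells in the result was not tested.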

How the data were processed

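RNA sequencing values of the tongue epithelia of 19 mice in 4 groups were used. According to the submitters' processing notes, STAR 2.7.9, SAMtools 1.7, HTSeq 0.13.5 and DESeq2 1.34.0 were used with build GRCm39. The authors deposited the values as TPM, which sum to 1000000 in each mouse, and how counts became TPM is not stated. Values of each gene are whole multiples of a step, from which the reads per mouse were recovered for 24680 of 24680 genes above 0 (within 0.001 of a whole read).

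Genes were compared with limma 3.58.1 (lmFit, and eBayes with a trend) in R 4.3.3 on log2(TPM + 0.1), so fold changes of genes near 0.1 TPM are understated. The limits were those of the report, and DESeq2 was the authors' tool only. Permutation tests and tables used Python 3.11.15 with pandas 2.3.3 and numpy 2.4.6, plots used matplotlib 3.10.9, and the steps were tested on simulated data.

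The members and lists were chosen with earlier results of these data known. Named genes are the 9 members, at most 4 called genes per direction, list and comparison with N, the most abundant gene of each marker list, the 10 genes most and the 5 least like the members' mean, and the 3 most like each member. Of the 10, 1 is not reported here. Besides the members, 6 pathway lists and 13 cell type lists were counted. Of their genes, Elovl2, Mc5r, Awat1, Adipoq, Plin1, Lep and Tyr were not in the table, and Fa2h, Flg2, Tek, Tyrp1, Dcpp1 and Lpo did not pass the filter.

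Alternatives were pseudocounts of 1 and 0.01 TPM, a filter at 1 TPM and none, quantile normalization, median-of-ratios scaling, a block for the mouse number, N mice 1 to 3 as the only controls, a fit restricted to the groups of a comparison, limma voom on recovered reads, an adjusted p below 0.05, no fold limit, and leaving out each mouse in turn. For EY against E, Y against E and the other lists these were chosen after seeing the data. Neither labels nor files give a sequencing batch. Promoters came from RefSeq on build GRCm38.p6, and no genome of build GRCm39 was used here.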

Additional observations from a re-analysis of the deposited data

Results flagged for a closer look

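A value far from the others of its group was looked for in groups of 5 and 6 mice, by whether the gap to the nearest mouse, over the range of the group, was above Dixon's 95% critical value. Groups of 3 were not tested. For normally distributed values chance alone gives about 1 in 20 such groups, and 9 were found among 66, of which 2 were among the 27 groups of member values. Summed TPM need not be so distributed, and the adipocyte sums of N and E, at 0 in every mouse, could not be flagged. No excess over chance is therefore read from these counts.

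Abca12 was high in EY mouse 5, at 19.3 TPM, with the next EY mouse at 14.3 TPM. Sdr9c7 was low in N mouse 1, at 37.9 TPM, with the next N mouse at 57.9 TPM.

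Summed skeletal muscle markers were high in N mouse 2 (233 TPM, next 58.7), in E mouse 5 (128 TPM, next 36.5) and in EY mouse 3 (1264 TPM, next 209). EY mouse 3 was also high for summed endothelial markers (3.24 TPM, next 1.04). N mouse 1 was high for summed neutrophil markers (7.62 TPM, next 2.47) and for summed macrophage and monocyte markers (241 TPM, next 73.2). Salivary markers were high in E mouse 2 (5.96 TPM, next 1.46). The part of these cells in the results was not tested.

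The effects of E6 and E7 on Acer1 differed with and without YAP1S127A, by -1.90 on the log2 scale in limma (adjusted p = 0.00167), which is the departure from the sum of both effects given in the report.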

How the results depend on the processing

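The 6 members called lower in EY against N and the 0 in E against N were counted under all alternatives run. In EY against E the 6 were called under all alternatives too, and Cyp4f39 made 7 after median-of-ratios scaling, after quantile normalization and with no fold limit. Counts in other comparisons moved, and the cause was not tested. Members called in Y against N (1) were 0 with only N mice 1 to 3 and 2 by limma voom. Those in EY against Y (3) were 4 after median-of-ratios scaling, 4 with no fold limit, 2 with a pseudocount of 1 TPM, 2 with the mouse number as a block and 1 in a fit of only the groups compared. Those in Y against E (0) were 1 after median-of-ratios scaling, 1 after quantile normalization, 1 at an adjusted p below 0.05, 1 with no fold limit and 2 by limma voom. Those for the departure from the sum of both effects (1) were 2 by limma voom and 2 at an adjusted p below 0.05. Leaving out each mouse gave 0 to 1 in Y against N, 1 to 3 in EY against Y, 0 to 1 in Y against E and 0 to 2 for the departure.

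Of all genes, 4157 were called in EY against N and 7248 with no fold limit. In Y against N there were 1042, with 657 for N mice 1 to 3 only, 615 for only the groups compared, 1599 at an adjusted p below 0.05 and 1935 with no fold limit. In E against N the 274 became 150 with only the groups compared and 414 at an adjusted p below 0.05. In EY against Y the 454 became 211, 865 and 803 with only the groups compared, that p limit and no fold limit. In EY against E the 2914 became 5746 with no fold limit. In Y against E the 563 became 223, 1016 and 986 under the settings named for EY against Y. For the departure the 40 became 118 by limma voom and 148 at an adjusted p below 0.05. Leaving out each mouse gave 639 to 1040 in Y against N, 200 to 497 in EY against Y, 266 to 581 in Y against E and 28 to 73 for the departure. The share of called genes that were higher moved from 61.1% to 38.9% in EY against E and from 67.5% to 56.1% in Y against E after median-of-ratios scaling. In EY against Y it was 53.5%, with 30.3% after that scaling, 30.1% after quantile normalization, 43.9% by limma voom and 73.0% for only the groups compared, and leaving out each mouse gave 41.5% to 65.4%.

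Log2 fold changes near 0 changed sign, none of them called. After median-of-ratios scaling these were -0.37, -0.090 and -0.076 for Cers3 in EY, Y and E against N, -0.14 and -0.045 for Abca12 in EY and E against N, -0.094 for Cyp4f39 in Y against N, -0.10 for Abca12 in EY against E and -0.014 for Cers3 in Y against E. After quantile normalization the same were -0.41, -0.15 and -0.11, -0.18 and -0.060, -0.17, -0.12 and -0.038. With only N mice 1 to 3, Cers3 was -0.014 in EY and Cyp4f39 -0.0016 in Y against N. Cers3 was 0.0074 in EY against E with the block and -0.17 in EY against N by limma voom. Leaving out each mouse, the ranges that crossed 0 were -0.071 to 0.048, -0.038 to 0.11, -0.022 to 0.20 and -0.11 to 0.039 for Cers3 (EY and E against N, Y and EY against E), -0.040 to 0.19 for Abca12 and -0.13 to 0.033 for Elovl4 (E against N), -0.20 to 0.47 and -0.66 to 0.0079 for Cyp4f39 (Y against N, EY against Y) and -0.68 to 0.025 for Alox12b (Y against N).

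With only N mice 1 to 3 the log2 ratios in EY were 0.92 for Cyp4f39 to Elovl4, -1.68 for Pnpla1 to Cers3, -3.14 for Acer1 to Cers3 and 0.0012 for Sdr9c7 to Aloxe3, and in E -0.27 for the last. Fewer mice raise the smallest p there. Leaving out each mouse gave, in EY, 0.94 to 1.18, -1.69 to -1.47, -3.43 to -3.16 and, for Aloxe3 to Alox12b, -0.59 to -0.30. In E it gave -0.51 to -0.38 for Sdr9c7 to Aloxe3, 0.58 to 0.78 for Cyp4f39 to Elovl4, -0.69 to -0.50 for Cers3 to Cyp4f39 and 0.30 to 0.51 for Pnpla1 to Cers3. In Y, Cers3 to Cyp4f39 ranged from -0.24 to 0.28. In E, Cyp4f39 to Elovl4 did not pass with all mice but passed in 2 of the fits without 1 mouse. Cers3 to Cyp4f39 and Pnpla1 to Cers3 in E, and Aloxe3 to Alox12b in EY, each passed in 1 such fit.

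Between mice of the same number in different groups the residual r ran from -0.0495 to 0.0781 over 24 pairs, with a median of 0.0226, within the range of -0.195 to 0.0913 over 109 other pairs, with a median of -0.00816. Within each group the mouse numbers follow the ascending order of the numbers in the sample descriptions. No link between equal numbers of different groups is stated, so the block does not stand for a known batch. With the number as a block, Pnpla1 in EY against Y was at -0.91 (adjusted p = 0.0103) and not called, and the counts of called genes were 3989, 861, 221, 320 and 27 for EY, Y and E against N, EY against Y and the departure. The departure has no value for a fit of only the groups compared, since it uses all 4 groups. With 88 to 6893 reads per member and mouse, read counts limit Acer1 in EY mice most.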
